A study of Homo sapiens with 16 samples.

Results

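The nuclear genes for subunits of the mitochondrial respiratory chain were followed across 4 groups of SW480 cells, an established human colorectal cancer line that lacks full-length APC. A gene was taken as a member when its symbol on the array platform began with NDUFA, NDUFB, NDUFC, NDUFS or NDUFV and a digit, with UQCR, with COX4 to COX8 or with ATP5, or was SDHA, SDHC, SDHD or CYC1, and each gene was read from the brightest of the probe sets that match it alone. This gave 82 members of 19775 genes tested, read by 157 probe sets, and 45 members had several. Of these, 77 code for proteins, with 32 genes of complex I, 3 of complex II, 7 of complex III, 17 of complex IV and 18 of complex V. The other 5 (ATP5MC2P1, COX6A1P1, NDUFB2-AS1, NDUFV1-DT and NDUFV2-AS1) are pseudogenes or noncoding transcripts, and none of them was called against siGFP cells. SDHB and UQCRFS1 were not analysed here, and NDUFS5, NDUFS8, UQCRH and NDUFC2 were read only by probe sets shared with another gene.

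The respiratory chain sits in the inner mitochondrial membrane. Complexes I and II take electrons from NADH and succinate, complex III passes them on through cytochrome c, complex IV delivers them to oxygen, and complex V, the ATP synthase, uses the proton gradient that complexes I, III and IV build. Most subunits are encoded in the nucleus and imported, while a core set is encoded in mitochondrial DNA, so a working complex needs both.

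RNA was measured on 16 Affymetrix U133 Plus 2.0 arrays, 4 per group, labelled as biological replicates A to D. The siTAZ cells carried an empty vector and received siRNA against TAZ (gene WWTR1), the sibcat cells carried an empty vector and received siRNA against beta-catenin (gene CTNNB1), the APC cells carried a stable vector for wild-type APC and received control siRNA, and the siGFP cells carried an empty vector and received control siRNA. All groups are therefore SW480 cells with a stable vector and an siRNA, and the labels do not say whether the APC cells are 1 clone, nor whether the biological replicates were cultured, transfected or extracted apart. The p-values reflect only how much arrays vary within groups. In the fit named below, this spread is pooled over the 4 groups and drawn toward that of other genes. Values are the authors' log2 RMA levels. Differences are log2 differences of group means, and a gene is called at an adjusted p under 0.05 from 1 limma fit over all arrays and genes. Fewer mitochondria, fewer cells of a kind and less RNA per cell cannot be told apart in such data, and the normalisation hides a change in total RNA.

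NDUFB5, CYC1 and COX5A, given as markers of the respiratory chain, ranged from 10.04 to 12.49 over all arrays. The targets were checked next. WWTR1 stood at 6.91 in siTAZ cells against 10.28 in siGFP cells, which is 9.66% of the siGFP level, and CTNNB1 stood at 10.16 in sibcat cells against 13.12, which is 12.9% (exact two-sided permutation p = 0.0286 for each, the smallest that 4 against 4 arrays can give). The brightest probe set of the APC gene did not pass in APC cells (0.08, adjusted p = 0.709), while 2 of its 5 probe sets were called higher, by 0.41 and 1.11. WWTR1 was also called higher in sibcat (0.70, adjusted p = 7.45e-07) and APC cells (0.73, adjusted p = 5.05e-07), and CTNNB1 was called lower in APC cells (-0.38, adjusted p = 0.0126). The dimmest WWTR1 probe set fell in siTAZ cells (-3.48) but did not show these rises. It gave -0.2225 (adjusted p = 0.269) in sibcat and 0.0675 (adjusted p = 0.786) in APC cells. The dimmest CTNNB1 probe set fell by less in sibcat cells (-0.4025, adjusted p = 0.000839). Of 8 epithelial markers, EPCAM, KRT8, KRT18 and KRT19 lay between 12.01 and 14.21 on every array, the intestinal genes CDX1, CDX2 and VIL1 lay between 5.35 and 7.13, and CDH17 was under 5.10, the median over all probe sets. In sibcat cells CDX2 averaged 5.59 against 6.56 in siGFP cells, and VIL1 averaged 6.98 against 5.96. Of the other lists, all 5 leukocyte markers had at least 1 group at or below that level, 3 of 5 fibroblast and 2 of 3 endothelial markers lay below it in every group, and CD14 averaged 6.24 in sibcat cells against 4.60 in siGFP cells. The 3-prime minus 5-prime difference of ACTB, a sign of RNA quality, averaged 2.57 ± 0.39 in siTAZ cells against 2.05 ± 0.16 in siGFP cells (SD, n = 4 each, exact permutation p = 0.0571), and in every group the A and B arrays had higher values than the C and D arrays. Its part in the results was not tested beyond a fit with this difference as a covariate. In that fit 5 coding members were called higher and 20 lower in siTAZ cells. These are 6.5% and 26.0%, beside 16.2% and 11.7% of all genes in the same fit.

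Measured against siGFP cells, more subunit genes were called lower than higher in siTAZ cells, and more were called higher than lower in sibcat and APC cells, mostly by small steps. In siTAZ cells 6 of the 77 coding members were called higher and 17 lower (7.79% and 22.1%), while 17.0% of all genes were called higher and 13.1% lower. In sibcat cells 26 were called higher and 6 lower (33.8% and 7.79%), against 18.6% and 17.3% of all genes. In APC cells 25 were called higher and 8 lower (32.5% and 10.4%), against 16.6% and 17.1% of all genes. The median difference over the coding members was -0.05 in siTAZ cells, 0.08 in sibcat cells and 0.08 in APC cells, beside 0.015, 0 and 0.01 over all genes. These comparisons share the siGFP arrays, so their directions are not independent. Single arrays decide some of the small counts, because only 3 members were called higher in siTAZ cells without siGFP replicate D or without siTAZ replicate A, and only 3 were called lower in sibcat cells without sibcat replicate B.

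Some of the calls depend on how arrays are put on one scale. Centring each array on its median gene moved the comparisons of siTAZ, sibcat and APC cells by 0.075, 0.05 and -0.0075. The split became 1 higher and 35 lower in siTAZ cells, 13 and 8 in sibcat cells, and 27 and 8 in APC cells. As shares these are 1.3% and 45.5%, 16.9% and 10.4%, and 35.1% and 10.4%. The shares of all genes were then 12.3% and 19.2%, 15.4% and 21.7%, and 17.3% and 16.5%. The sibcat share called higher was thus near that of all genes once arrays were centred. The A and B arrays, analysed alone, gave 0 higher and 10 lower in siTAZ cells, 4 and 2 in sibcat cells, and 10 and 5 in APC cells. As shares these are 0% and 13.0%, 5.2% and 2.6%, and 13.0% and 6.5%. The shares of all genes in that fit were 10.5% and 7.5%, 12.7% and 11.7%, and 9.8% and 11.4%. On these arrays the sibcat share called higher was therefore below that of all genes. The C and D arrays alone gave 2 higher and 15 lower in siTAZ cells, 18 and 4 in sibcat cells, and 15 and 4 in APC cells. These are 2.6% and 19.5%, 23.4% and 5.2%, and 19.5% and 5.2%. All genes had 14.4% and 12.3%, 16.2% and 15.6%, and 14.4% and 15.3% there. The medians kept their sign in both pairs of replicates, at -0.08 and -0.06 in siTAZ cells, 0.07 and 0.095 in sibcat cells, and 0.07 and 0.09 in APC cells.

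Subunit genes are also bright, and bright genes are called more often. Among the 12559 genes at or above the median probe set level, 26.9% were called higher and 21.4% lower in siTAZ cells, beside 9.86% and 35.2% of the 71 coding members at that level. In sibcat cells these shares were 28.9% and 27.1% of such genes, beside 43.7% and 9.86% of the members. In APC cells they were 25.4% and 25.9%, beside 38.0% and 11.3% of the members.

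**Figure D1:**
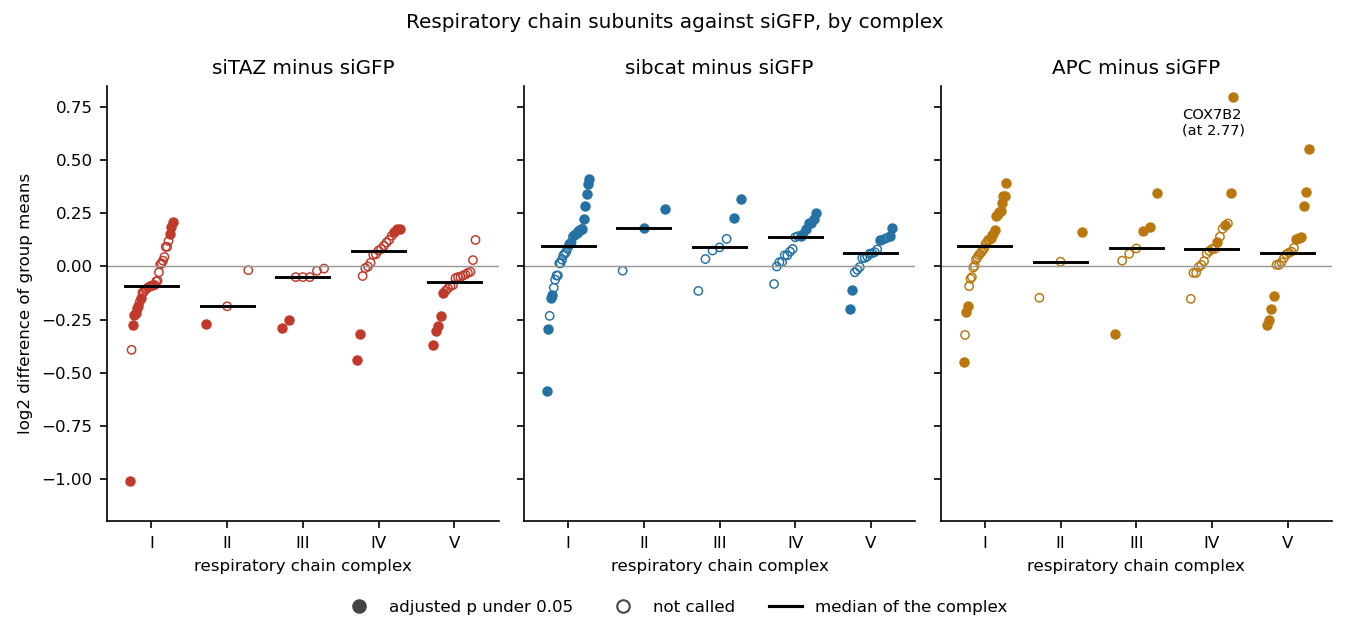
Log2 difference of each of the 77 coding members from siGFP cells (vertical axis) by complex (horizontal axis), with filled points for genes at an adjusted p under 0.05, open points for the others and a bar at the median. Complex IV alone has a median above 0 in siTAZ cells (0.08, which becomes 0 with arrays centred on their median gene), NDUFB5 is the lowest point at -1.01, and COX7B2 (2.77 in APC cells) is drawn at the top edge, outside the scale.

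Most of the called steps were small. In siTAZ cells 0 called members were at least 1.2-fold higher and 9 at least 1.2-fold lower, in sibcat cells the counts were 6 and 2, and in APC cells 10 and 3. Past 1.5-fold there were only NDUFB5 in siTAZ cells, NDUFB10 in sibcat cells and COX7B2 in APC cells. Of all 82 members, 56 were called in at least 1 comparison with siGFP cells and 26 in none. The matching shares of all genes were not counted for these or for the fold thresholds. Such counts therefore do not set the members apart from other genes. The genes ATP5MC1, COX8A and NDUFS4 were called lower in siTAZ cells and higher in both sibcat and APC cells. NDUFA2 and NDUFA3 were called higher in all 3 groups, and no member was called lower in all 3.

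**Figure D2:**
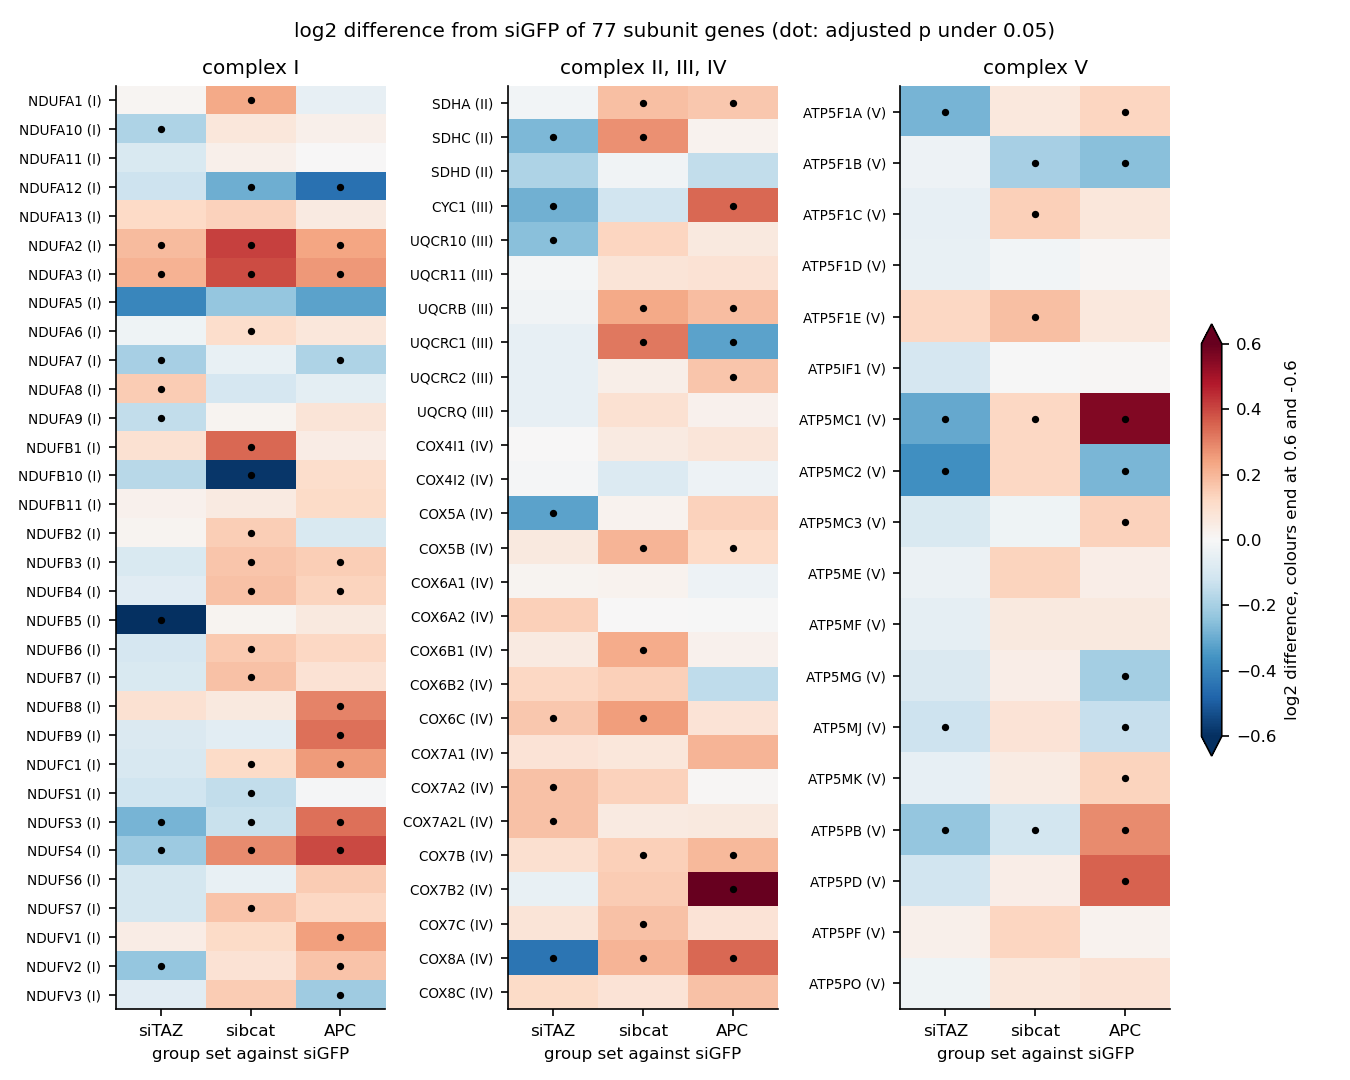
Colour gives the log2 difference from siGFP cells of each of the 77 coding members (rows, with the complex in brackets) in siTAZ, sibcat and APC cells (columns), with colours ending at 0.6 and -0.6 and a dot for an adjusted p under 0.05. In complex I, 7 genes carry a dot and are lower in siTAZ cells, whereas 13 are higher in sibcat cells and 11 in APC cells. These are 21.9%, 40.6% and 34.4% of its genes, beside 13.1%, 18.6% and 16.6% of all genes called in those directions.

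Complex I, the NADH dehydrogenase, showed its largest change in 1 accessory subunit of the membrane arm. NDUFB5 (GRCh38.p14 chr3:179604794-179627647) had log2 levels of 10.40, 10.50, 10.45 and 10.49 in siTAZ cells, 11.45, 11.47, 11.55 and 11.47 in sibcat cells and 11.54, 11.52, 11.53 and 11.53 in APC cells, against 11.50, 11.43, 11.41 and 11.54 in siGFP cells. The siTAZ arrays lay about a full log2 unit below all others, which overlapped each other. Its difference from siGFP cells was -1.01 (SE 0.046, adjusted p = 7.48e-11), or 49.7% of the siGFP level, beside 0.02 (adjusted p = 0.855) in sibcat cells and 0.06 (adjusted p = 0.362) in APC cells. The direct contrasts were as large, at -1.03 against sibcat cells and -1.07 against APC cells, and the siTAZ call held in all 19 alternative fits, with differences between -1.09 and -0.98.

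NDUFB10, another accessory subunit of the membrane arm, was the member that fell furthest in sibcat cells. Its levels were 11.31, 11.27, 11.11 and 11.03 in siTAZ cells, 10.77, 10.88, 10.65 and 10.75 in sibcat cells and 11.52, 11.45, 11.43 and 11.41 in APC cells, against 11.45, 11.38, 11.25 and 11.31 in siGFP cells. The sibcat arrays lay below every other array, while siTAZ and siGFP arrays overlapped. The sibcat difference was -0.59 (SE 0.069, adjusted p = 3.1e-06), its second probe set gave -0.51, and the gene had -0.17 (adjusted p = 0.0826) in siTAZ cells and 0.11 (adjusted p = 0.282) in APC cells.

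NDUFS4, a subunit of the peripheral arm whose loss in people causes Leigh syndrome, moved in opposite directions. Its levels were 9.08, 9.04, 8.99 and 8.95 in siTAZ cells, 9.41, 9.57, 9.58 and 9.50 in sibcat cells and 9.69, 9.60, 9.67 and 9.55 in APC cells, against 9.28, 9.17, 9.22 and 9.26 in siGFP cells. The siTAZ arrays lay below the siGFP arrays, and the sibcat and APC arrays lay above them and overlapped each other. The differences from siGFP cells were -0.22 (SE 0.053, adjusted p = 0.00459) in siTAZ cells, 0.28 (SE 0.053, adjusted p = 0.00042) in sibcat cells and 0.40 (SE 0.053, adjusted p = 1.54e-05) in APC cells. The second probe set of NDUFS4 gave 0 in siTAZ cells, and with the mean of both probe sets the siTAZ call was lost.

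NDUFA12, a peripheral-arm subunit, fell in sibcat and APC cells, at -0.29 (SE 0.046, adjusted p = 7.28e-05) and -0.45 (SE 0.046, adjusted p = 7.02e-07). Its levels were 12.89, 12.88, 12.86 and 12.91 in siTAZ cells, 12.70, 12.75, 12.69 and 12.72 in sibcat cells and 12.60, 12.57, 12.62 and 12.45 in APC cells, against 13.00, 13.04, 12.96 and 13.03 in siGFP cells. The 4 groups did not overlap, with siGFP arrays highest and APC arrays lowest, although the siTAZ difference of -0.12 missed the threshold (adjusted p = 0.0567).

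NDUFA3, a small accessory subunit, rose in all 3 groups. Its levels were 11.28, 11.15, 11.15 and 11.19 in siTAZ cells, 11.38, 11.43, 11.35 and 11.34 in sibcat cells and 11.28, 11.23, 11.23 and 11.24 in APC cells, against 11.03, 11.04, 10.91 and 10.96 in siGFP cells. Every siGFP array lay below every other array, and sibcat arrays were the highest. The differences were 0.21 (adjusted p = 0.00279) in siTAZ cells, 0.39 (adjusted p = 4.63e-06) in sibcat cells and 0.26 (adjusted p = 0.000344) in APC cells. NDUFA2, an accessory subunit of the peripheral arm, was called higher in the same groups. Its levels were 11.48, 11.48, 11.38 and 11.35 in siTAZ cells, 11.70, 11.69, 11.57 and 11.62 in sibcat cells and 11.54, 11.50, 11.44 and 11.41 in APC cells, against 11.31, 11.35, 11.08 and 11.20 in siGFP cells, and the siTAZ and siGFP ranges met at 11.35. Its differences were 0.19 (adjusted p = 0.0299) in siTAZ cells, 0.41 (adjusted p = 4.7e-05) in sibcat cells and 0.24 (adjusted p = 0.00626) in APC cells. This rests on 1 probe set that can cross-hybridise, because without such probe sets NDUFA2 had -0.115 in siTAZ cells and -0.05 in sibcat cells. The NDUFA2 probe set read in that fit averaged 4.89 over all arrays, below the median probe set level of 5.10, and may be background. NDUFB1, an accessory subunit of the membrane arm, was called in sibcat cells alone (0.34, adjusted p = 7.91e-05), and its levels were 12.62, 12.52, 12.52 and 12.39 in siTAZ cells, 12.80, 12.78, 12.77 and 12.70 in sibcat cells and 12.48, 12.52, 12.45 and 12.40 in APC cells, against 12.49, 12.42, 12.43 and 12.34 in siGFP cells. All sibcat arrays lay above all others, and the other 3 groups overlapped. This call was lost once cross-hybridising probe sets were left out, although the direction held. The other NDUFB1 probe set gave 0.2975 in sibcat cells, with a larger SE (0.152).

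The core subunits of complex I, which carry its catalytic reaction, were called in both directions. NDUFS3, of the ubiquinone-reducing module, was called lower in siTAZ cells (-0.28, adjusted p = 0.000149) and sibcat cells (-0.13, adjusted p = 0.0314) and higher in APC cells (0.33, adjusted p = 1.78e-05). A probe set shared by NDUFS3 and PTPMT1 was also called lower in siTAZ (-0.28) and sibcat cells (-0.50). It did not show the rise in APC cells (-0.0425, adjusted p = 0.719). NDUFV2, of the NADH-binding module, was called lower in siTAZ cells (-0.23, adjusted p = 0.00144) and higher in APC cells (0.17, adjusted p = 0.0117). Its partner NDUFV1, which binds the flavin cofactor, was called in APC cells (0.25, adjusted p = 0.000637), NDUFS7 in sibcat cells (0.17, adjusted p = 0.0131) and NDUFS1, the largest core subunit, was lower in sibcat cells (-0.15, adjusted p = 0.0265). The core gene NDUFS8 was read by probe sets that the annotation also assigns to microRNAs, and the brightest gave 0.02 (adjusted p = 0.875) in siTAZ cells, 0.34 (adjusted p = 0.000404) in sibcat cells and 0.43 (adjusted p = 3.6e-05) in APC cells. The dimmest of its 3 probe sets gave -0.15 (adjusted p = 0.196) in APC cells, where the other 2 were called higher. In all, complex I had 3 genes called higher and 7 lower in siTAZ cells, 13 and 4 in sibcat cells, and 11 and 3 in APC cells. As shares these are 9.4% and 21.9%, 40.6% and 12.5%, and 34.4% and 9.4%. The shares of all genes were 17.0% and 13.1%, 18.6% and 17.3%, and 16.6% and 17.1%. NDUFA5 had the second lowest siTAZ difference of complex I, -0.39, with siTAZ levels of 9.75, 9.63, 9.85 and 9.94 against 10.02, 9.83, 10.48 and 10.41 in siGFP cells, and did not pass (adjusted p = 0.0644). Its C and D arrays were higher than A and B within siGFP cells.

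Complex II, succinate dehydrogenase, also belongs to the tricarboxylic acid cycle. SDHC, 1 of its membrane anchors, had levels of 9.67, 9.67, 9.74 and 9.66 in siTAZ cells, 10.22, 10.20, 10.23 and 10.26 in sibcat cells and 10.01, 9.99, 9.92 and 9.99 in APC cells, against 9.88, 10.05, 9.95 and 9.94 in siGFP cells. All siTAZ arrays lay below and all sibcat arrays above the other groups, while APC and siGFP arrays overlapped. The differences were -0.27 (SE 0.047, adjusted p = 0.000232) in siTAZ cells and 0.27 (SE 0.047, adjusted p = 0.000157) in sibcat cells. The gene has 6 other probe sets, of which 3 were called lower in siTAZ cells and 1 higher in sibcat cells, and both calls were lost without probe sets that can cross-hybridise. SDHA, the flavoprotein that oxidises succinate, was called higher in sibcat cells (0.18, adjusted p = 0.00907) and APC cells (0.16, adjusted p = 0.0184). SDHD, the other anchor, was called in none, with -0.19 (adjusted p = 0.0589) in siTAZ cells.

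In complex III, the cytochrome bc1 complex, 2 genes were called lower in siTAZ cells and 0 higher. The 2 are 28.6% of its genes, beside 13.1% of all genes called lower and 17.0% called higher. CYC1 encodes cytochrome c1, the heme subunit that hands electrons to cytochrome c. Its levels were 10.13, 10.12, 10.10 and 10.04 in siTAZ cells, 10.36, 10.33, 10.14 and 10.25 in sibcat cells and 10.80, 10.73, 10.68 and 10.71 in APC cells, against 10.52, 10.35, 10.35 and 10.32 in siGFP cells. The siTAZ arrays were below and the APC arrays above all siGFP arrays, and sibcat arrays overlapped with siGFP arrays. The differences were -0.29 (SE 0.059, adjusted p = 0.00107) in siTAZ cells and 0.35 (SE 0.059, adjusted p = 0.000169) in APC cells, and the direct contrast of siTAZ with APC cells was -0.63 (adjusted p = 1.13e-07). UQCR10, a small subunit, was lower in siTAZ cells (-0.25, adjusted p = 0.00126), and its second probe set gave -0.23.

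The core subunits UQCRC1 and UQCRC2, which form the matrix-facing part of complex III, were called in opposite directions in APC cells. UQCRC1 levels were 10.53, 10.67, 10.57 and 10.62 in siTAZ cells, 10.98, 11.06, 10.89 and 10.93 in sibcat cells and 10.37, 10.34, 10.26 and 10.34 in APC cells, against 10.64, 10.69, 10.62 and 10.64 in siGFP cells. The sibcat arrays lay above and the APC arrays below all siTAZ and siGFP arrays. Its differences were 0.32 (SE 0.05, adjusted p = 7.17e-05) in sibcat cells and -0.32 (SE 0.05, adjusted p = 7.2e-05) in APC cells, and the direct contrast of APC with sibcat cells gave -0.64 (adjusted p = 1.53e-08). UQCRC2 was called higher in APC cells (0.17, adjusted p = 0.0143) and had 0.04 (adjusted p = 0.663) in sibcat cells. UQCRB, which contacts the ubiquinone site, was higher in sibcat (0.23, adjusted p = 0.007) and APC cells (0.19, adjusted p = 0.0268), and of its 3 other probe sets 1 was called higher and 1 lower (-0.53) in sibcat cells. UQCRH, read by a probe set shared with its copy UQCRHL, had 0.31 (adjusted p = 0.000149) in APC cells.

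**Figure D3:**
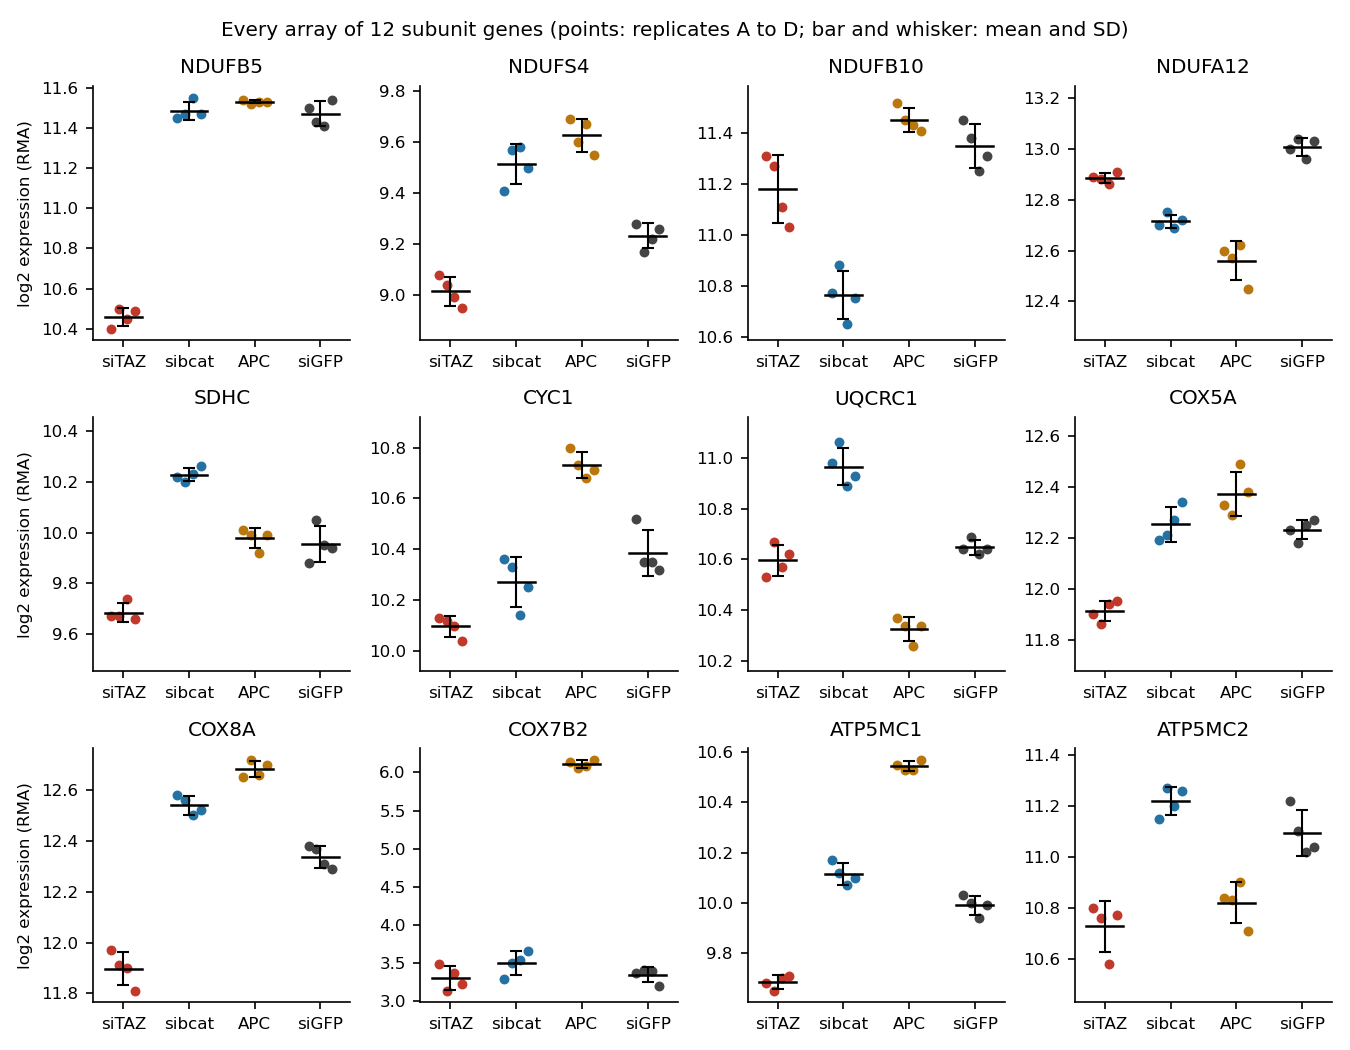
Log2 RMA level (vertical axis, a scale of its own in each panel) on every array of siTAZ, sibcat, APC and siGFP cells for 12 subunit genes, with bars and whiskers at the mean and SD of 4 arrays. NDUFB5 stands apart in siTAZ cells (10.40 to 10.50), NDUFB10 in sibcat cells (10.65 to 10.88) and COX7B2 in APC cells (6.06 to 6.17).

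Complex IV, cytochrome c oxidase, had the largest siTAZ fall in COX8A, a small membrane subunit. COX8A (GRCh38.p14 chr11:63974620-63976543) had levels of 11.97, 11.91, 11.90 and 11.81 in siTAZ cells, 12.58, 12.56, 12.50 and 12.52 in sibcat cells and 12.65, 12.72, 12.66 and 12.70 in APC cells, against 12.38, 12.37, 12.31 and 12.29 in siGFP cells. The groups did not overlap, with siTAZ arrays lowest, siGFP arrays next and APC arrays highest. The differences were -0.44 (SE 0.047, adjusted p = 1.53e-06) in siTAZ cells, 0.20 (SE 0.047, adjusted p = 0.00228) in sibcat cells and 0.35 (SE 0.047, adjusted p = 1.54e-05) in APC cells. The siTAZ level was 58.0% of the APC level.

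COX5A, a subunit on the matrix side near the core, fell in siTAZ cells. Its levels were 11.90, 11.86, 11.94 and 11.95 in siTAZ cells, 12.19, 12.21, 12.27 and 12.34 in sibcat cells and 12.33, 12.29, 12.49 and 12.38 in APC cells, against 12.23, 12.18, 12.25 and 12.27 in siGFP cells. The siTAZ arrays lay below all others, and sibcat arrays overlapped with those of APC and siGFP cells. The siTAZ difference was -0.32 (SE 0.053, adjusted p = 0.000157), its second probe set gave -0.31, and the APC difference of 0.14 missed the threshold (adjusted p = 0.0519). With the replicate letter as a block, which pairs APC and siGFP arrays, COX5A was called higher in APC cells (adjusted p = 0.0151), as it was in 9 of 19 alternative fits in all. COX5B, COX6C, COX6B1, COX7B, COX7C and COX8A were the 6 genes of complex IV called higher in sibcat cells, by 0.14 to 0.25, and 0 of the 17 were called lower. The 6 are 35.3% of the complex, beside 18.6% of all genes called higher and 17.3% called lower.

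In siTAZ cells 12 of the 17 genes of complex IV had a difference above 0 on the deposited scale, as did 10528 of all 19775 genes. COX6C (0.16, adjusted p = 0.0398), COX7A2 (0.18, adjusted p = 0.0357) and COX7A2L were called higher. These 3 are 17.6% of the complex, and the 2 called lower are 11.8%. Both lie near the shares of all genes (17.0% higher and 13.1% lower). COX7A2L, a relative of COX7A2 that takes part in joining complexes III and IV, had levels of 11.04, 11.04, 11.18 and 11.08 in siTAZ cells, 10.92, 10.93, 11.00 and 11.00 in sibcat cells and 10.89, 10.93, 11.06 and 11.00 in APC cells, against 10.84, 10.91, 10.93 and 10.96 in siGFP cells. The siTAZ arrays lay above all siGFP arrays. Its difference was 0.18 (SE 0.052, adjusted p = 0.0166), and the call was lost when arrays were centred on their median gene and in 4 fits with fewer arrays. COX4I1, which starts nuclear-encoded assembly of the complex, had 0.00 in siTAZ cells (adjusted p = 1) and was called in none of the 3 comparisons.

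COX7B2, an isoform gene of COX7B described mainly in testis, showed the largest difference of any member. Its levels were 3.48, 3.13, 3.36 and 3.22 in siTAZ cells, 3.29, 3.50, 3.53 and 3.66 in sibcat cells and 6.14, 6.06, 6.09 and 6.17 in APC cells, against 3.37, 3.41, 3.39 and 3.20 in siGFP cells. The APC arrays stood apart from the 12 others, all of which were under the median probe set level. The difference from siGFP cells was 2.77 (SE 0.083, adjusted p = 9.33e-14), and the values carry no detection call, so the siGFP level may be background and the 6.83-fold ratio is that of the deposited values. Its paralogue COX7B was called higher in APC cells by 0.20 (adjusted p = 0.00147) and in sibcat cells by 0.14. COX4I2, COX6A2, COX7A1 and COX8C, isoforms of lung, muscle or testis, lay below 5.10 in every group, and none was called.

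The 150 bases upstream of the RefSeq start sites (GRCh38.p14) of COX8A, which moved in all groups, and of the paralogues COX7B and COX7B2, which differed in APC cells, are shown 5′ to 3′ along the gene. Their positions are chr11:63974470-63974619, plus strand, chrX:77899318-77899467, plus strand and chr4:46909246-46909395, minus strand. Capitals mark the ETS core motif CCGGAAG, which COX8A holds on the opposite strand at 18 to 12 bases before its start.
COX8A: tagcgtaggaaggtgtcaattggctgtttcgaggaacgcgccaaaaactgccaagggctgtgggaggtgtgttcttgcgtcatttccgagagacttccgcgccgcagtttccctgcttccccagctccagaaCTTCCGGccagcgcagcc
COX7B: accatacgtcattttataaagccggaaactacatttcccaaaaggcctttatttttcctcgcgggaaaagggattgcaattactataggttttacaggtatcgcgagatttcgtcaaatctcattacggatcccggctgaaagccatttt
COX7B2: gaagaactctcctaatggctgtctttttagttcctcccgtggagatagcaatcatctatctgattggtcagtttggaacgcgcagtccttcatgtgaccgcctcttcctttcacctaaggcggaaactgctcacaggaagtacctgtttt
The windows of COX7B and COX7B2 hold none of the letters searched, the ETS core CCGGAAG, the NRF1 core GCATGCGC and the YY1 core AAGATGGC, each on both strands.

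Beside complex IV, COXFA4 (formerly NDUFA4) has a symbol outside the selection but is now counted with this complex. Its levels were 12.75, 12.70, 12.65 and 12.59 in siTAZ cells, 12.62, 12.79, 12.77 and 12.74 in sibcat cells and 12.33, 12.39, 12.42 and 12.33 in APC cells, against 12.61, 12.44, 12.59 and 12.55 in siGFP cells. It was called higher in sibcat cells (0.18, adjusted p = 0.0157) and lower in APC cells (-0.18, adjusted p = 0.0183). Its relative COXFA4L3, a protein known to take the place of COXFA4 in the complex, had levels of 5.76, 5.58, 5.57 and 5.48 in siTAZ cells, 8.10, 8.08, 8.42 and 8.12 in sibcat cells and 6.62, 6.41, 6.87 and 6.71 in APC cells, against 5.10, 4.86, 5.19 and 5.10 in siGFP cells. All 12 arrays of the 3 perturbed groups lay above all siGFP arrays, and sibcat arrays were highest. The differences were 0.54 (SE 0.1, adjusted p = 0.000594) in siTAZ cells, 3.12 (SE 0.1, adjusted p = 7.71e-13) in sibcat cells and 1.59 (SE 0.1, adjusted p = 1.85e-09) in APC cells. The siGFP mean of 5.06 was below the median probe set level, and may be background.

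Complex V, the ATP synthase, had 0 genes called higher and 5 lower in siTAZ cells, and 16 of its 18 differences there were below 0. The 5 are 27.8% of the complex, beside 13.1% of all genes called lower and 17.0% called higher. Of all 19775 genes, 9146 had a siTAZ difference below 0. The subunit c ring, which turns as protons pass, is encoded by ATP5MC1, ATP5MC2 and ATP5MC3, whose mature proteins are the same, and the genes parted. ATP5MC1 (GRCh38.p14 chr17:48892787-48895871) had levels of 9.68, 9.65, 9.70 and 9.71 in siTAZ cells, 10.17, 10.12, 10.07 and 10.10 in sibcat cells and 10.55, 10.53, 10.53 and 10.57 in APC cells, against 10.03, 10.00, 9.94 and 9.99 in siGFP cells. The 4 groups did not overlap, with siTAZ arrays lowest and APC arrays highest. The differences were -0.31 (SE 0.042, adjusted p = 2.48e-05) in siTAZ cells, 0.13 (SE 0.042, adjusted p = 0.0274) in sibcat cells and 0.56 (SE 0.042, adjusted p = 1.46e-08) in APC cells. The siTAZ level was 55.1% of the APC level (adjusted p = 2.93e-11), and the sibcat call was lost in 8 of 18 alternative fits.

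ATP5MC2 (GRCh38.p14 chr12:53665170-53681423) fell in both siTAZ and APC cells. Its levels were 10.80, 10.76, 10.58 and 10.77 in siTAZ cells, 11.15, 11.27, 11.20 and 11.26 in sibcat cells and 10.84, 10.83, 10.90 and 10.71 in APC cells, against 11.22, 11.10, 11.02 and 11.04 in siGFP cells. Arrays of siTAZ and APC cells overlapped and lay below all sibcat and siGFP arrays. The differences were -0.37 (SE 0.063, adjusted p = 0.000219) in siTAZ cells, 0.13 (adjusted p = 0.145) in sibcat cells and -0.28 (SE 0.063, adjusted p = 0.00232) in APC cells, so that in APC cells ATP5MC1 was called higher and ATP5MC2 lower. The second ATP5MC2 probe set was called lower in siTAZ cells (-0.35) and not called in APC cells (-0.23). ATP5MC3 was called higher in APC cells (0.14, adjusted p = 0.0098) on its brightest probe set. This probe set gave -0.0275 in sibcat and -0.0925 in siTAZ cells without a call. The dimmest of its probe sets was called higher in APC (0.98), sibcat (0.6525) and siTAZ cells (0.4325). The remaining probe set was not called in these comparisons (0.12, -0.01 and -0.08).

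The upstream 150 bases of ATP5MC1 and ATP5MC2 are shown because these genes encode 1 mature protein and moved apart. Positions on GRCh38.p14 are chr17:48892637-48892786, plus strand and chr12:53676084-53676233, minus strand, and the ATP5MC2 stretch ends at the start that RefSeq's promoter table uses, inside the gene's full span. Capitals mark the NRF1 core GCATGCGC, 40 to 33 bases before the ATP5MC2 start.
ATP5MC1: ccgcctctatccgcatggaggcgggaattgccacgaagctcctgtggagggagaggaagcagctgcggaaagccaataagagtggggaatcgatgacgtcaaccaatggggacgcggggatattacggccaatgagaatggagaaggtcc
ATP5MC2: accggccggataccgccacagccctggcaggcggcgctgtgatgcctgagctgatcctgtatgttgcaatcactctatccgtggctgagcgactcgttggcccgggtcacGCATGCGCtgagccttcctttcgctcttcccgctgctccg
The shown bases of ATP5MC1 hold none of the 3 motifs. Over the 300-base windows (250 bases before the start and 50 after) of the 65 coding members with a promoter entry, 12 (18.5%) held the NRF1 core, 18 (27.7%) the ETS core and 10 (15.4%) the YY1 core, against 3.27%, 10.7% and 3.03% of all 27305 promoters. A match of letters is a description of the sequence and not a measured binding site.

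In the catalytic head of the synthase, ATP5F1A (subunit alpha) was called lower in siTAZ cells (-0.28, adjusted p = 8.7e-05) and higher in APC cells (0.13, adjusted p = 0.0289), and its second probe set gave -0.10 in siTAZ cells without a call. ATP5F1B, the beta subunit where ATP forms, had levels of 12.54, 12.58, 12.58 and 12.60 in siTAZ cells, 12.40, 12.42, 12.39 and 12.41 in sibcat cells and 12.36, 12.34, 12.39 and 12.32 in APC cells, against 12.65, 12.58, 12.60 and 12.59 in siGFP cells. The sibcat and APC ranges met at 12.39, and both lay below all siTAZ and siGFP arrays. Its differences were -0.20 (SE 0.04, adjusted p = 0.000708) in sibcat cells and -0.25 (SE 0.04, adjusted p = 8.42e-05) in APC cells, beside -0.03 (adjusted p = 0.665) in siTAZ cells. ATP5PB, of the peripheral stalk that holds the head still, was called lower in siTAZ (-0.23, adjusted p = 0.000212) and sibcat cells (-0.11, adjusted p = 0.0354) and higher in APC cells (0.28, adjusted p = 2.29e-05), and ATP5PD of the same stalk was higher in APC cells (0.35, adjusted p = 7.09e-06). ATP5MG and ATP5MJ of the membrane part were lower in APC cells, at -0.20 (adjusted p = 0.00528) and -0.14 (adjusted p = 0.0233). ATP5IF1, the inhibitor of ATP hydrolysis, was called in none of the 3 comparisons.

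ATP5MF, subunit f, needs a separate account. Its single-gene probe set lay at 4.37 to 4.48 as group means, below the median probe set level, and was not called. A brighter probe set, which the annotation pairs with both ATP5MF and ARMC2-AS1, had levels of 9.75, 9.56, 9.54 and 9.47 in siTAZ cells, 12.42, 12.42, 12.31 and 12.28 in sibcat cells and 12.60, 12.62, 12.57 and 12.52 in APC cells, against 12.57, 12.62, 12.43 and 12.40 in siGFP cells. The siTAZ arrays stood far below the 12 others, at 13.2% of the siGFP level. Its difference was -2.93 (SE 0.071, adjusted p = 2.93e-14) in siTAZ cells, -0.15 (SE 0.071, adjusted p = 0.156) in sibcat cells and 0.07 (SE 0.071, adjusted p = 0.54) in APC cells, from a fit over all probe sets. Which of the genes this signal comes from cannot be told apart on this probe set, and it is counted in no total here.

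Contrasts among the perturbed groups take no siGFP mean, although they share arrays with each other. Of the 77 coding members, 4 were called higher and 38 lower (49.4%) in siTAZ against sibcat cells, where 18.9% of all genes were higher and 17.8% lower, and the median difference was -0.14. In siTAZ against APC cells 6 were higher and 33 lower (42.9%), against 22.4% and 19.9% of all genes, with a median of -0.10. In APC against sibcat cells the calls were 16 higher and 16 lower (20.8% each), against 20.3% and 21.7% of all genes. They became 23 higher and 10 lower with arrays centred on their median gene. These are 29.9% and 13.0%, against 25.9% and 18.6% of all genes on that scale. By complex, the genes called lower in siTAZ than in sibcat cells were 20 of 32 in complex I, 2 of 3 in II and 5 of 7 in III. They were 4 of 17 in complex IV and 7 of 18 in V. From complex I to V these are 62.5%, 66.7%, 71.4%, 23.5% and 38.9%. With or without a call, 27, 3, 7, 11 and 17 genes had a difference below 0, as did 9292 of all 19775 genes.

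The average over the subunits of a complex shows how evenly arrays behaved. Over the 71 coding members whose mean reached the median probe set level, the mean deviation from the siGFP mean was -0.08 ± 0.015 in siTAZ cells, 0.08 ± 0.011 in sibcat cells and 0.07 ± 0.019 in APC cells, beside a spread of 0.016 among siGFP arrays (SD, n = 4 arrays each). The siTAZ arrays lay below all siGFP arrays for complexes I, II, III and V. For complex IV the siTAZ mean was 0.015, and the arrays overlapped with siGFP arrays. This depends on the scaling, because with arrays centred on their median gene the siTAZ mean of complex IV was -0.06, with all 4 arrays below all siGFP arrays, beside -0.23 to -0.17 for the other complexes. The sibcat arrays lay above all siGFP arrays for every complex except V, where the ranges met, at 0.02 to 0.06 against -0.02 to 0.03. With centred arrays the sibcat means of complexes I and V were 0.0087 and -0.0043, and both overlapped with siGFP arrays.

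**Figure D4:**
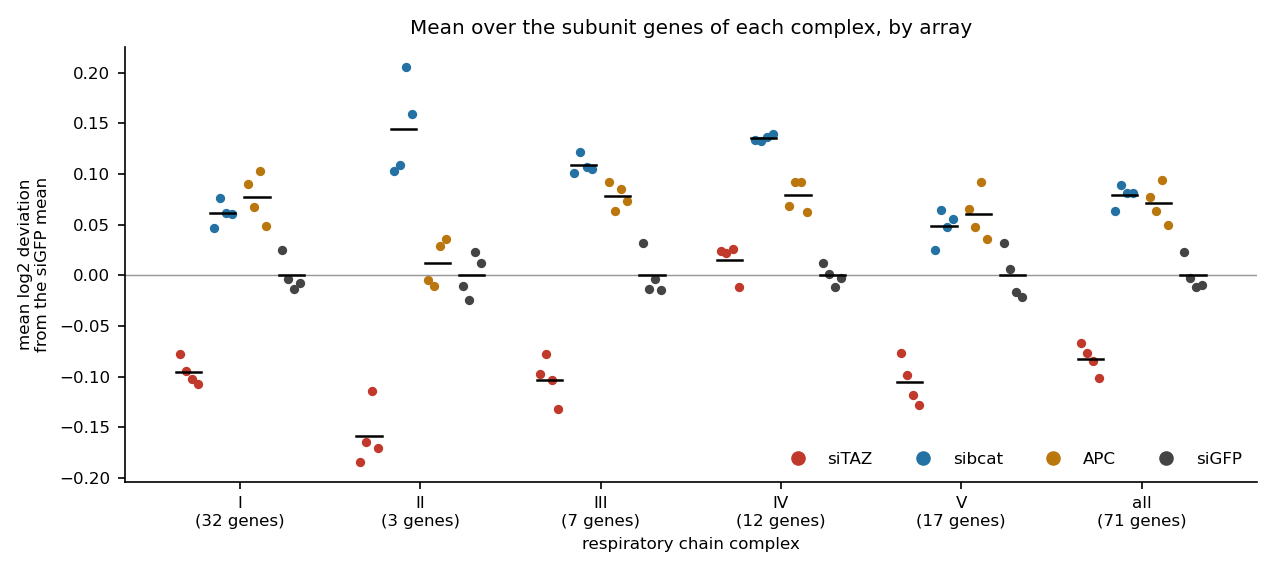
Each point is 1 array, and its height is the mean log2 deviation from the siGFP mean over the genes of the complex named below it (the number of genes is in brackets), with a bar at the mean of the 4 arrays. In complex IV the siTAZ points range from -0.01 to 0.03, near the siGFP points, while in complexes I, II, III and V they lie between -0.18 and -0.08.

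Chain assembly factors, which are not part of the finished complexes, had a median difference of -0.12 in siTAZ cells, beside -0.05 for the subunits, and this gap was not tested. Of 52 listed, 4 were called higher and 22 lower in siTAZ cells, 10 and 12 in sibcat cells, and 18 and 12 in APC cells. As shares these are 7.7% and 42.3%, 19.2% and 23.1%, and 34.6% and 23.1%, so in sibcat cells the list lay near the shares of all genes given above (18.6% and 17.3%). COX20, a chaperone of the mitochondrially encoded COX2 subunit, averaged 8.45 in siTAZ cells against 10.11 in siGFP cells (-1.66, adjusted p = 2.66e-12). SDHAF3, which helps build the iron-sulfur subunit of complex II, averaged 8.43 against 9.40 (-0.97, adjusted p = 0.000135). TMEM126B, of the complex I assembly machinery, had -0.63 in siTAZ cells, NDUFAF4 had -0.67 in sibcat cells, and LYRM7, which serves complex III, had 0.74 in APC cells. SDHAF4 was lower in APC cells (-0.97, adjusted p = 3.92e-05).

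Of the 13 subunits encoded in mitochondrial DNA, 7 were measured. The platform's COX1 (MT-CO1, the catalytic core of complex IV) was called higher in siTAZ cells (0.33, adjusted p = 0.00479) and sibcat cells (0.23, adjusted p = 0.0358). With the ACTB difference as a covariate neither call held (0.16 and 0.15, adjusted p = 0.104 and 0.0659), and the sibcat call was lost in 8 of 18 alternatives. ND6 (MT-ND6, of complex I) was lower in sibcat cells (-0.57) and higher in APC cells (0.75), and the other 5 were not called against siGFP cells.

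The mitochondrial ribosome, which translates those subunits, had protein genes called mostly in 1 direction in each group. Of its 77 measured protein genes, 2 were called higher and 46 lower in siTAZ cells, 6 and 38 in sibcat cells, and 36 and 4 in APC cells. As shares these are 2.6% and 59.7%, 7.8% and 49.4%, and 46.8% and 5.2%. The shares of all genes were 17.0% and 13.1%, 18.6% and 17.3%, and 16.6% and 17.1%. The median difference was -0.19 in siTAZ cells, -0.16 in sibcat cells and 0.18 in APC cells. MRPS2 fell in siTAZ cells (-1.15), MRPL3 fell in siTAZ (-0.61) and sibcat cells (-0.86), and in APC cells MRPL12 rose (0.77) while MRPS6 fell (-1.14). In sibcat cells the medians of the ribosomal proteins and of the chain subunits (0.08) had opposite signs, and no test between these lists was made.

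Electron carriers and inner membrane transporters had 2 of 24 called higher and 16 lower in siTAZ cells, 3 and 10 in sibcat cells, and 8 and 4 in APC cells. As shares these are 8.3% and 66.7%, 12.5% and 41.7%, and 33.3% and 16.7%. The shares of all genes were 17.0% and 13.1%, 18.6% and 17.3%, and 16.6% and 17.1%, so the lower share in APC cells lay near that of all genes. ETFA, which carries electrons from fatty acid oxidation, fell in siTAZ cells (-0.63), and ETFDH, which passes them to ubiquinone, rose in sibcat (1.12) and APC cells (0.89). UCP2, an inner membrane carrier, fell in siTAZ (-0.78) and APC cells (-0.98). Of 12 tricarboxylic acid cycle genes, 0 were higher and 4 lower in siTAZ cells, 4 and 3 in sibcat cells, and 2 and 5 in APC cells. As shares these are 0% and 33.3%, 33.3% and 25.0%, and 16.7% and 41.7%, to be read beside the shares of all genes just given. The 2 called higher in APC cells are 16.7% of the list, beside 16.6% of all genes. CS, citrate synthase, fell in sibcat (-0.64) and APC cells (-0.45).

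Pyruvate entry and lactate genes had 5 of 14 higher and 4 lower in siTAZ cells, 7 and 3 in sibcat cells, and 5 and 3 in APC cells. The lower share of 21.4% in sibcat and in APC cells is near that of all genes (17.3% and 17.1%). PC, pyruvate carboxylase, rose in sibcat (2.05, adjusted p = 1.9e-12) and APC cells (0.91, adjusted p = 3.76e-08). In siTAZ cells MPC2 had the largest difference of this list (-2.635, adjusted p = 4.29e-15), averaging 7.33 against 9.965 in siGFP cells. Its siTAZ call held in all 19 alternative fits. DLAT, a core enzyme of the pyruvate dehydrogenase complex, also fell in siTAZ cells (-0.65). Of 20 regulators of mitochondrial biogenesis, 3 were higher and 5 lower in siTAZ cells, 2 and 10 in sibcat cells, and 7 and 1 in APC cells. In siTAZ cells the share called higher lay near that of all genes (17.0%), and 25% were lower, beside 13.1%. In sibcat cells 10% were higher and 50% lower, beside 18.6% and 17.3% of all genes. In APC cells these shares were 35% and 5%, beside 16.6% and 17.1%. PPARGC1A, a coactivator of such genes, was called higher in all 3 groups (1.13, 0.96 and 1.29 in siTAZ, sibcat and APC cells), from a siGFP mean of 3.77, and every group mean lay below the median probe set level. GABPA, the ETS factor of many subunit promoters, fell in siTAZ cells (-0.80, adjusted p = 5.05e-05), its partner GABPB1 fell in sibcat cells (-0.67), and the nuclear receptor ESRRA rose in APC cells (0.56).

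**Figure D5:**
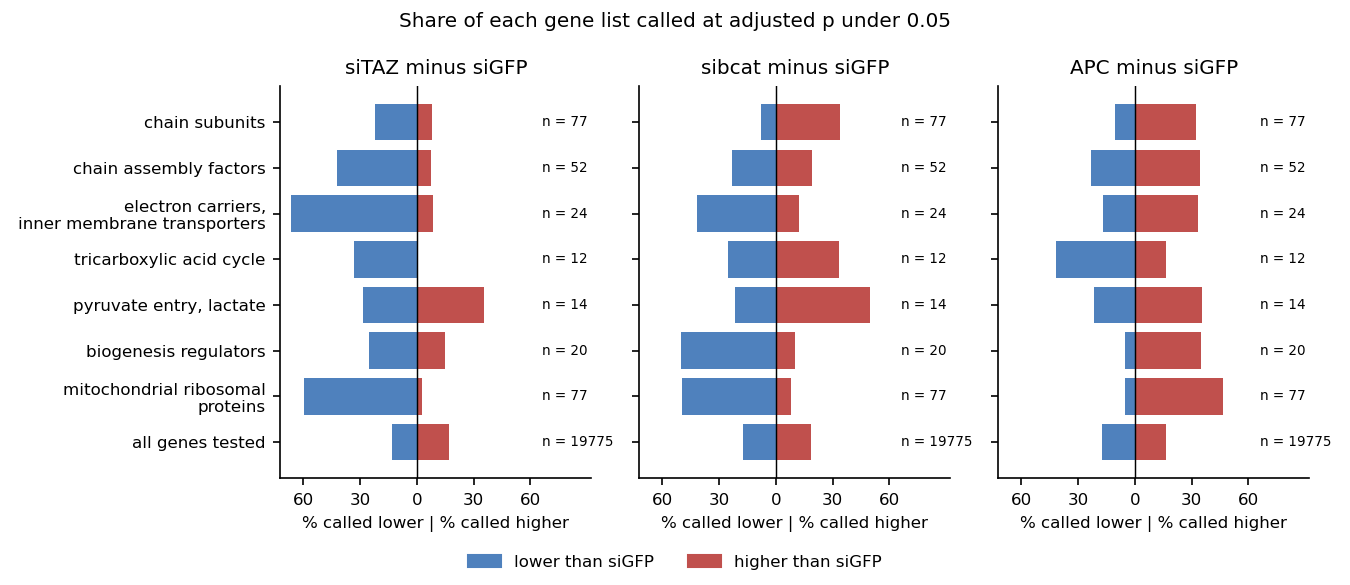
Bars give the percentage of each gene list (rows, n genes at the right) called lower (left of 0) or higher (right of 0) than siGFP cells in siTAZ, sibcat and APC cells. Mitochondrial ribosomal proteins reach 46 of 77 lower in siTAZ cells and 36 of 77 higher in APC cells, while the chain subunits have 17 and 25 of 77 in those directions.

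Several calls of members with more than 1 probe set depend on which probe set is read. For NDUFA7, called lower in APC cells (-0.19), the other probe set was called higher (0.21). For NDUFV3, called lower in APC cells (-0.22), the other gave 0.10, and in the direct contrast of APC with sibcat cells they were called in opposite directions (-0.37 and 0.38). For NDUFS7, called higher in sibcat cells, the other gave -0.02. For SDHC, lower in APC than in sibcat cells (-0.25), 1 of 6 other probe sets was called the opposite way (0.52), as 1 of 3 was for UQCRB in sibcat cells. Their level in these cells is therefore uncertain. By contrast, both probe sets of ATP5PB were called higher in APC cells (0.28 and 0.65), as were those of NDUFC1 (0.26 and 0.32) and of COX7B (0.20 and 0.63). In siTAZ against siGFP cells, however, the COX7B probe sets parted. The brighter gave 0.0975 without a call, and the dimmer was called lower by -1.16.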

How the data were processed

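Total RNA of 16 SW480 samples was hybridised to Affymetrix U133 Plus 2.0 arrays. The deposited table holds log2 values of 54675 probe sets, made by the authors with RMA, a method of background correction, quantile normalisation and probe summary, per the submitters' processing notes. It gives no detection calls. Values ran from 1.8 to 14.56 and array medians from 5.06 to 5.12, and no further normalisation was applied. The number of arrays limits the precision.

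Of the probe sets, the platform annotation gave 41097 a single gene, 1801 several and 11777 none. Each of 19775 genes was read from its brightest single-gene probe set by the mean over all arrays. Groups came from the sample labels. The 4 groups were fitted together without covariates in limma 3.58.1 (R 4.3.3; lmFit and eBayes), with 6 contrasts and Benjamini-Hochberg adjustment over all genes of each, and this fit gives the SEs and adjusted p-values. Exact permutation tests were two-sided (SciPy 1.17.1, Python 3.11.15). The fit was tested on simulated data. The members and lists were chosen with earlier results of these data known. Values of every array are given for NDUFB5, CYC1 and COX5A, for the called members with the 3 largest rises and the 3 largest falls in each comparison with siGFP cells, and for the called member of each complex with the largest difference there. Up to 3 called genes of each related list were named per comparison, and any other array values were chosen after they were seen. Probe sets shared by several genes were fitted apart, over all probe sets.

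In 4 contrasts every same-letter correlation of residuals was above 0.1, which does not show that the replicate letters pair the samples. In these contrasts 2 to 5 of 8 arrays correlated best with their own letter. In siTAZ cells against siGFP cells and against APC cells the lowest correlations were 0.0921 and 0.0843. Alternatives were the mean of a gene's probe sets, no cross-hybridising probe sets, bright genes only, centred arrays, the replicate block, a trended robust prior, the ACTB difference as a covariate, only the compared groups, and leaving out each array. Fits of A and B or of C and D arrays alone, and with those pairs as a block, were added after seeing the data. Promoter sequences came from RefSeq (GRCh38.p14).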

Additional observations from a re-analysis of the deposited data

Results flagged for a closer look

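Of 92 groups of 4 values examined, 3 held an array that stood apart from the others of its group by Dixon's test at the 95% level, which chance alone gives in about 1 group in 20. CYC1 had 10.52 on siGFP replicate A, above the 10.32 to 10.35 of the other siGFP arrays. SDHC had 9.74 on siTAZ replicate C, above the 9.66 and 9.67 of the others. The mean deviation of complex IV in siTAZ cells was -0.0117 on replicate D, below the other arrays, which ranged from 0.0217 to 0.0258.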

How the results depend on the processing

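Of the results on single genes, 1951 kept their direction and their side of the threshold under an alternative, 26 passed it anew, 58 no longer passed it and 5 reversed. Of the counts and medians over coding members and the target genes, 347 held, 54 moved, 3 reversed and 3 passed anew. Counts below are of members called higher and lower.
With the replicate block (paired letters) the counts were 7 and 22 in siTAZ against siGFP cells, 31 and 7 in sibcat, 31 and 9 in APC against siGFP cells, 5 and 42 in siTAZ against sibcat cells, 17 and 17 in APC against sibcat cells, and 9 and 34 in siTAZ against APC cells, so the block moved no count by over 1.5 times. In siTAZ against siGFP cells 4 of 8 arrays correlated best with their own letter, and 6 of 8 in siTAZ against APC cells. The counts were 4 in sibcat and 5 in APC against siGFP cells, 2 in siTAZ against sibcat cells and 4 in APC against sibcat cells. Whether equal letters mark paired samples cannot be told from these values.
With arrays centred on their median gene, siTAZ against siGFP cells had 1 and 35 (median -0.125), sibcat against siGFP cells 13 higher (median 0.03), siTAZ against sibcat cells a median of -0.1625, siTAZ against APC cells -0.18, and APC against sibcat cells 10 lower with a median of 0.0425, the reverse of -0.0175. That last median also reversed with the mean of the gene's probe sets (0.009) and without probe sets that can cross-hybridise (0.0287, 9 lower). Without those probe sets sibcat against siGFP cells had 14 and 2 of 64 (median 0.0675), APC against siGFP cells 4 lower (0.0975), and siTAZ against sibcat cells 2 and 24, and the reversed genes were NDUFA2 (-0.115 in siTAZ, -0.0475 in sibcat cells), POLRMT (-0.095 in siTAZ cells), PDSS1 (0.1625) and TACO1 (0.0225 in sibcat cells). The mean of the probe sets gave 5 lower in APC against siGFP cells, a median of -0.1113 in siTAZ against sibcat cells, and 0.347 for the APC gene, beside 0.405 and 1.11 on its other called probe sets. Bright genes alone gave medians of -0.0675 in siTAZ against siGFP cells and -0.035 in APC against sibcat cells, and 10 higher in siTAZ against APC cells, as did the trended robust prior. The ACTB covariate gave a median of -0.1313 in siTAZ against APC cells. With only the compared arrays there were 2 higher in siTAZ, 17 and 3 in sibcat, and 16 higher in APC, all against siGFP cells.
The A and B arrays alone gave 0 and 10 in siTAZ (median -0.08), 4 and 2 in sibcat, and 10 and 5 in APC against siGFP cells, 2 and 14 in siTAZ against sibcat cells (-0.115), 9 and 6 in APC against sibcat cells, and 1 and 20 in siTAZ against APC cells (-0.065). The C and D arrays alone gave 2 higher in siTAZ, 15 and 4 in APC against siGFP cells, and medians of -0.155 in siTAZ against sibcat and -0.13 in siTAZ against APC cells. The cause of these moves was not tested.
Leaving out 1 array at a time, siTAZ against siGFP cells ranged over 3 to 5 higher, 16 to 19 lower and medians of -0.0733 to -0.0450. Sibcat against siGFP cells ranged over 20 to 25, 3 to 5, and 0.0783 to 0.0950, and APC against siGFP cells over 20 to 24, 7 to 9, and 0.0717 to 0.0900, with the APC gene at -0.0750 to 0.1675. The ranges were 4 to 5, 34 to 39, and -0.1475 to -0.1217 in siTAZ against sibcat cells, 12 to 14, 12 to 16, and -0.0342 to -0.0042 in APC against sibcat cells, and 5 to 6, 31 to 33, and -0.1125 to -0.0975 in siTAZ against APC cells.
The arrays carry no detection call, so levels near or under the median probe set level, such as COX7B2 outside APC cells, cannot be told from background.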
